A study of Mus musculus with 12 samples.

Results

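The captured promoters of Gata2 and Gfi1b are described here by their chromatin contacts in mouse HSCs (haematopoietic stem cells) of the fetal liver and of the adult bone marrow. All rows of the authors' contact table whose gene name, without its promoter number, was Gata2 or Gfi1b were taken. This gave 2 captured promoter fragments with 67 listed contacts, 46 for Gata2 and 21 for Gfi1b, of 89545 contacts in the whole table. Both fragments belonged to the first of 2 capture batches, which held 49944 contacts of 1952 promoters, and neither was in the second. A contact joins a captured fragment to a distal bin of 2 kb and is listed where it was called in at least 1 population.

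The fetal cells were sorted from livers of embryonic day 14.5 and the adult cells from bone marrow at 6 to 8 weeks of age, both from mice labelled B6129SF1. Each population was defined by the same surface phenotype, Lin-Sca1+cKit+CD135-, and was probed by promoter Capture-C, in which DpnII-cut, religated chromatin is enriched for chosen promoters with oligonucleotide probes. Each population had 2 libraries per batch, but the deposited table gives 1 pooled value per population. The values that follow thus carry no replicate error, and no test between the populations was possible. Intervals (95%, exact Clopper-Pearson unless stated) cover counting error only, apart from those of median distances, which treat bins as draws. Whether a pooled count is the sum or the mean of the libraries is not stated, and the intervals take each deposited count as a number of counted events. The series also has wild-type and TCF3-knockout HPC7 cells, a blood stem and progenitor line, which were not analysed here.

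GATA2 is a zinc-finger transcription factor that binds GATA motifs and is required for the emergence and maintenance of HSCs. It acts with TAL1, LYL1, LMO2, LDB1, RUNX1, ERG and FLI1 at blood stem cell enhancers, and its own gene is controlled by distant enhancers that bind GATA factors. GFI1B is a zinc-finger repressor that recognises a core AATC motif, recruits the histone demethylase LSD1 (Kdm1a) with its partner CoREST, and directs red cell and platelet formation while restraining HSC proliferation. The Gfi1b gene is likewise known for downstream enhancers that GATA and TAL1 complexes bind.

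The annotated start regions of both genes are shown because a promoter fragment of each was the viewpoint of its contacts. RefSeq (GRCm38.p6) gives 2 start windows for Gata2, at chr6:88193641-88193940 and chr6:88198414-88198713 on the plus strand, and 1 for Gfi1b, at chr2:28621933-28622232 on the minus strand. Each holds 250 bases before and 50 after a transcript start, and capitals mark GATA and AATC on either strand (TATC and GATT on the other).
Gata2 distal start: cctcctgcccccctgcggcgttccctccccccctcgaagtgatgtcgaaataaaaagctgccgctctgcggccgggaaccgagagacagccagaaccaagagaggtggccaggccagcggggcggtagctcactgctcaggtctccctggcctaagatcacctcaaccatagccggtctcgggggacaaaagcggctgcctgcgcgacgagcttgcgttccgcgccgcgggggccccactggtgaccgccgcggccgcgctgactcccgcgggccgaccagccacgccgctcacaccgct
Gata2 proximal start: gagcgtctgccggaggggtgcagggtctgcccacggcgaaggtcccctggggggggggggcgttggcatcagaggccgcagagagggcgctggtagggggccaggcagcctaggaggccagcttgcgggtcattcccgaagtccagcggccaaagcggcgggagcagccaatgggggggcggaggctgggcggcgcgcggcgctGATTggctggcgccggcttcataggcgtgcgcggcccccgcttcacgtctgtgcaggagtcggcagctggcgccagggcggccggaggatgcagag
Gfi1b start: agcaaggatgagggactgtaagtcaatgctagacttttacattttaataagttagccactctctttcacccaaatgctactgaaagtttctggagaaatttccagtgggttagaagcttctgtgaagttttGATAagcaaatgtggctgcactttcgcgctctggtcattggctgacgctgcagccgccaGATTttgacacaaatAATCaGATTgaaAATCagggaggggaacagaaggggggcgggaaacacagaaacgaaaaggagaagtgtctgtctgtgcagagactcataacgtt

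The windows differed in base composition. G and C made up 69.3% of the distal and 73.7% of the proximal Gata2 window, and 44.3% of the Gfi1b window, against a median of 52.7% over 32851 such mouse windows. CpG dinucleotides numbered 32 and 29 in the Gata2 windows and 7 in the Gfi1b window, where 7 was also the median. The Gfi1b window held 1 GATA and 4 AATC matches, none overlapping another. The Gata2 windows held 0 GATA matches, with 0 AATC matches in the distal and 1 in the proximal window. GATA occurred in 57.9% and AATC in 73.1% of all windows, so a match is a description of these letters alone. The DpnII site GATC, a palindrome found in 48.0% of windows, occurred 1 time in the distal Gata2 window and 0 times in the other windows.

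Coordinates of contacts follow the table, whose build is mm9 per the submitters' processing notes. The Gata2 fragment ran from 88148181 to 88148923 on chromosome 6, a length of 742 bp, and the table ties it to transcript ENSMUST00000015197. The Gfi1b fragment ran from 28477992 to 28479255 on chromosome 2, a length of 1263 bp, tied to ENSMUST00000164290. The RefSeq windows are of a later build, so which Gata2 start lay in the fragment was not determined. Distances are given in the direction of transcription, with negative values upstream.

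Gata2 expression was higher in adult cells. The deposited FPKM (RNA fragments scaled by transcript length and library size, 1 value per population) was 21.9 in fetal and 57.3 in adult cells, a 2.62-fold difference, and the authors' deposited table marks Gata2 as differentially expressed. Of the 1952 promoters of the batch 35.5% carry that mark. Gfi1b was at 13.1 FPKM in fetal and 18.3 in adult cells, 1.40-fold higher in adult cells, without the mark.

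Markers of other cells differed between the populations alongside these values. All 6 listed erythroid genes of a list of 7 had more FPKM in fetal cells, summing to 69.5 against 17.05, with Klf1, the erythroid master factor, at 24.0 and 2.40, and the globin gene Hba-a1 at 6.27 and 0.0112. All 4 megakaryocyte genes had more FPKM in adult cells, summing to 24.3 in fetal and 171 in adult cells, with Pf4 at 14.2 and 113. The 5 macrophage genes summed to 22.9 in fetal and 2.05 in adult cells and the 3 granulocyte genes to 71.2 and 5.18. Of 6 listed stem and progenitor genes of a list of 7, 5 were higher in adult cells, and Kit, the SCF receptor used in the sort, was at 32.8 and 50.5. Fewer cells of a type and less RNA per cell cannot be told apart in such bulk values, and the part of these cells in the Gata2 and Gfi1b values was not tested.

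The Gata2 promoter had 30 called contacts in fetal and 30 in adult cells. It ranked high among the promoters of the batch, at percentile 82.5 of fetal and 83.8 of adult calls, where the medians were 11 and 10. Of its 46 contacts 14 were shared calls, 16 were fetal-only and 16 adult-only calls. Over all contacts of the batch 25.7% were called in both, 38.9% in fetal only and 35.4% in adult only, so that fetal calls made up 64.6% and adult calls 61.1% of them. In each population 46.7% of the Gata2 calls (28.3 to 65.7) recurred in the other, an interval that includes the 39.8% of fetal and 42.1% of adult calls that recurred over the batch.

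The Gfi1b promoter had 13 fetal and 10 adult calls. It stood at percentile 56.3 of fetal and 49.2 of adult calls. Of its 21 contacts 2 were shared calls, 11 fetal-only and 8 adult-only calls. Of the fetal calls 15.4% recurred in adult cells (1.92 to 45.4), and 20.0% of the adult ones did so in fetal cells (2.52 to 55.6). These intervals also include the levels of the batch. In the batch 48.1% of promoters had more fetal and 42.1% more adult calls, and Gfi1b was among the former.

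**Figure D1:**
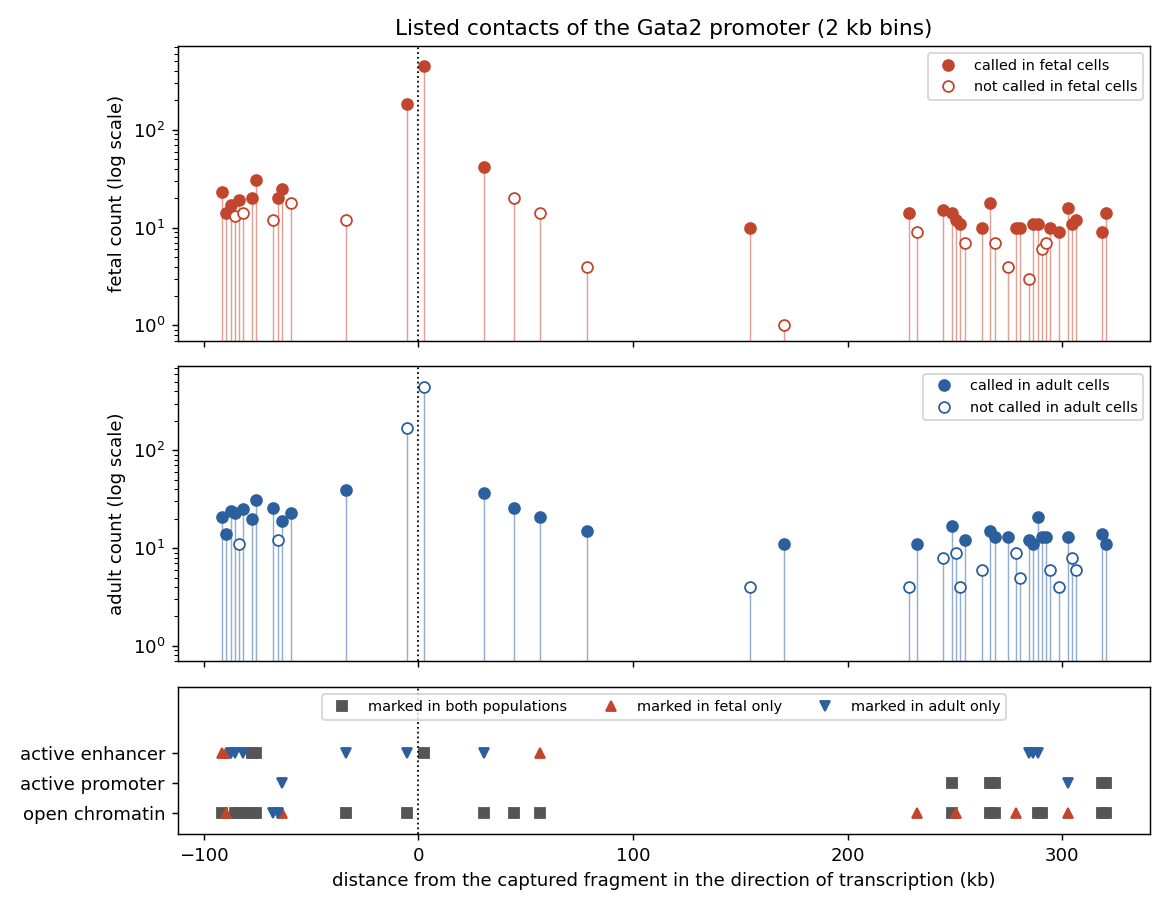
Counts (log axis) of the 46 listed Gata2 contacts against distance from the captured fragment (kb, negative upstream), in fetal (top) and adult cells (middle), with filled points for called and open points for uncalled contacts, and the chromatin marks of each bin (bottom). Called bins gather from -91.6 to -59.6 kb and from 228 to 320 kb.

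The Gata2 contacts fell into an upstream group and a far downstream group. The upstream group spanned 12 bins between -91.6 and -59.6 kb, of which 6 were called in both populations, 2 in fetal only and 4 in adult only, and 7 carried an active enhancer mark. It held 226 fetal and 249 adult counts. The downstream group spanned 25 bins between 228 and 320 kb, with 7 called in both, 11 in fetal only and 7 in adult only. It held 260 fetal and 258 adult counts and 6 bins marked as active promoters. Between these groups 9 bins were listed, 2 of them within 6 kb of the fragment.

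The bin with the highest counts of the upstream group lay at -75.6 kb. This bin, chr6:88072001-88074001, had 31 fetal and 31 adult counts with scores of 3.70 and 4.48, where the score is the value the authors' caller gave a contact, read here as −log10 p although the table does not say so, and the lowest called score was 1.30. Its neighbour at -77.6 kb, chr6:88070001-88072001, had 20 counts in each population and scores of 1.99 and 2.35. Both bins were open and marked as active enhancers in both populations, the only 2 of the upstream group with the enhancer mark in both. The second of them holds the distance of the known Gata2 enhancer named -77. That name counts from a transcript start, and which of the 2 Gata2 starts lay in the fragment was not determined. The match is thus one of distance from the fragment only, and the element itself may lie in another bin. Measured from the fragment in the same way, no listed bin held the distance of the intronic enhancer named +9.5. The nearest was at 2.45 kb.

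Enhancer marks elsewhere in the upstream group differed between the populations. The bins at -87.6, -85.6 and -81.6 kb were marked in adult cells only. They had 17, 13 and 14 fetal counts against 24, 23 and 25 adult counts. All 3 were called in adult cells, with scores of 3.60, 3.43 and 3.85, and the first was also called in fetal cells at 1.56. The bins at -91.6 and -89.6 kb were marked in fetal cells only and were called in both populations, with 23 and 14 fetal counts against 21 and 14 adult counts. Their counts were thus close to equal, while the 3 adult-marked bins of this group had more adult counts.

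Calls of the 2 populations alternated along this group. The bin at -83.6 kb, between adult-only calls at -85.6 and -81.6 kb, was called in fetal cells only, with 19 fetal and 11 adult counts. The bin at -67.6 kb was called in adult cells only (12 and 26 counts) and the next one, at -65.6 kb, in fetal cells only (20 and 12 counts). Of all 32 Gata2 contacts called in 1 population, 24 had a call of the other population within 4 kb. For Gfi1b this was 12 of 19, and over the batch it was 41.1% of such contacts. Gata2 had 30 calls in each population, where the medians over promoters were 11 fetal and 10 adult calls. The part of call number in this share was not tested.

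The bins nearest to the Gata2 fragment had the highest counts and scores close to the lowest called one. At 2.45 kb, chr6:88150001-88152001 had 450 fetal and 445 adult counts, and at -5.55 kb, chr6:88142001-88144001 had 184 and 170. Both were called in fetal cells only, with scores of 1.33 and 1.54. The first was marked as an active enhancer in both populations and the second in adult cells only. Nearly equal counts thus fell on different sides of the calling threshold.

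Between the groups most of the bins outside 6 kb were adult-only calls. At -33.6 kb, chr6:88114001-88116001, an enhancer bin by its adult mark and open in both populations, had 12 fetal and 39 adult counts and was called in adult cells only, at a score of 1.99. The bins at 44.4, 56.4 and 78.4 kb were adult-only calls with 20, 14 and 4 fetal counts against 26, 21 and 15 adult counts. The bin at 30.4 kb was called in both, with 42 and 37 counts. Adult scores of the 3 adult-only bins lay between 1.40 and 1.49, close to the lowest called score. The bin at 154 kb was a fetal-only call with 10 fetal and 4 adult counts, and that at 170 kb an adult-only call with 1 and 11.

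The downstream group of Gata2 held bins marked as active promoters and 1 captured promoter. The bin at 266 kb, chr6:88414001-88416001, contained the captured fragment of Ruvbl1, an ATPase of chromatin remodelling complexes. It had 18 fetal and 15 adult counts and was called in both populations, with scores of 1.79 and 3.43. Active promoters of both populations were also marked at 248 kb (14 and 17 counts, called in both), at 268 kb (7 and 13 counts, adult only), and at 318 and 320 kb (9 and 14, then 14 and 11 counts, called in both). The bin at 302 kb, an active promoter in adult cells only, had 16 and 13 counts and the highest fetal score of Gata2, 4.32.

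The highest adult score of Gata2 was at 288 kb. The bin chr6:88436001-88438001 scored 6.45 in adult and 1.86 in fetal cells, with 21 adult and 11 fetal counts. It belonged to a run of 3 bins marked as active enhancers in adult cells only, of which the bin at 284 kb had 12 adult and 3 fetal counts and the bin at 286 kb 11 in each. The fetal-only bins at 228 and 244 kb, with 14 and 15 fetal against 4 and 8 adult counts, carried no enhancer or promoter mark and were not open.

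The Ruvbl1 promoter recorded the same meeting from its own side. Both promoters were captured in the same batch, so the same ligated molecules may be counted from either side. The record is thus not an independent one. From the Ruvbl1 fragment, 267 kb from that of Gata2, the bin over the Gata2 fragment had 16 fetal and 15 adult counts. It was called in adult cells only, at a score of 8.07, despite the near-equal counts. The bin at -5.55 kb from Gata2 was called from Ruvbl1 in both populations, with 9 counts each, the bin at -3.55 kb in fetal cells only, with 6 fetal and 5 adult counts, and the bin at 4.45 kb in adult cells only, with 3 fetal and 9 adult counts. FPKM of Ruvbl1 was 60.6 in fetal and 36.7 in adult cells, the opposite order to Gata2.

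Other captured promoters also reached the Gata2 fragment. Gm5577, 217 kb away, met its bin in fetal cells only, with 11 fetal and 10 adult counts. Mcm2, a subunit of the replicative helicase 701 kb away, met it in fetal cells only in the second batch, with 32 fetal and 13 adult counts and a score of 4.68. No listed contact of another promoter lay within 5 kb of the Gfi1b fragment.

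Promoters most like Gata2 in the bins they met were ranked by shared bins over bins of either promoter, within the first batch. Ruvbl1 shared 3 of its 10 bins with Gata2 (5.66% of 53), Gm5577 3 of 52 (3.16% of 95) and Cnbp, which encodes a nucleic acid-binding zinc-knuckle protein, 1 of 13 (1.72% of 58). The bins shared with Ruvbl1 lay at -85.6, -75.6 and -5.6 kb, so Ruvbl1 also met the Gata2 upstream group, including its bin at -75.6 kb. These are small shares of the 46 Gata2 bins. No promoter of the first batch shared a bin with Gfi1b.

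**Figure D2:**
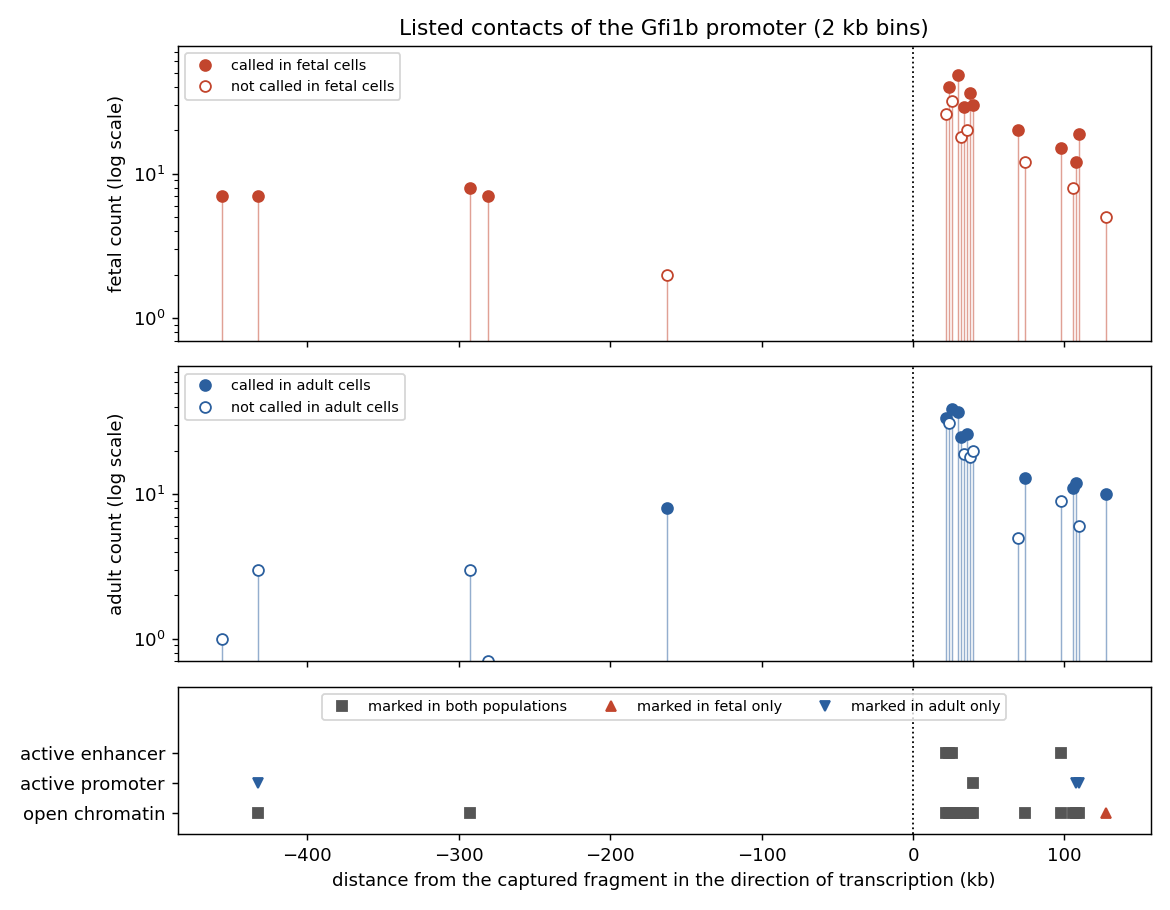
Counts (log axis) of the 21 listed Gfi1b contacts against distance from the captured fragment (kb, negative upstream), drawn as for Gata2; a point on the lower edge is a count of 0. The 9 bins from 21.6 to 39.6 kb downstream hold most counts, and 4 of the 5 upstream bins were called in fetal cells only.

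Gfi1b contacts lay mostly downstream of the gene's start. Of the 21 bins 16 were downstream, and 9 of them formed a run between 21.6 and 39.6 kb with 279 fetal and 249 adult counts. Within that run 1 bin was called in both populations, 4 in fetal only and 4 in adult only. The shared bin at 29.6 kb, chr2:28448001-28450001, had 48 fetal and 37 adult counts, the highest fetal count of the promoter, with scores of 3.12 and 2.49. It was open in both populations and carried no enhancer mark.

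The bins of the run next to the gene were its enhancer bins. At 21.6, 23.6 and 25.6 kb all 3 bins were open and marked as active enhancers in both populations. They had 26, 40 and 32 fetal counts against 34, 31 and 39 adult counts. The outer bins were called in adult cells only, at scores of 1.32 and 2.18, and the middle one in fetal cells only, at 1.56, so calls alternated over 6 kb of enhancer. The distances of the known Gfi1b enhancers named +13, +16 and +17 fell in no listed bin, and the nearest listed bin was that at 21.6 kb.

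Farther along, calls of both populations were listed for Gfi1b. At 37.6 kb the bin had 36 fetal and 18 adult counts, and at 39.6 kb, an active promoter bin in both populations, 30 and 20. The bin at 69.6 kb had 20 and 5 counts at a fetal score of 2.60, with no mark. The bin at 110 kb, chr2:28368001-28370001, had 19 and 6 counts and the highest score of the promoter, 4.78 in fetal cells, although its active promoter mark was that of adult cells only. Its neighbour at 108 kb, with the same mark, had 12 counts in each population and was called in both. A further enhancer bin, at 97.6 kb and marked in both populations, had 15 and 9 counts and was called in fetal cells only. Adult-only calls lay at 73.6, 106 and 128 kb, with 12, 8 and 5 fetal against 13, 11 and 10 adult counts.

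Upstream of Gfi1b all 5 listed bins had low counts. Those at -456, -432, -292 and -280 kb were called in fetal cells only, with 7, 7, 8 and 7 fetal against 1, 3, 3 and 0 adult counts and fetal scores from 1.36 to 1.51. The bin at -162 kb was an adult-only call with 2 fetal and 8 adult counts. All of these scores lay close to the lowest called score of 1.30.

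Many calls of both promoters lay near the threshold. For Gata2, 22 of 30 fetal and 18 of 30 adult calls scored within 1 unit of the lowest called score, against 58.8% and 55.4% of calls over the batch. For Gfi1b these were 9 of 13 fetal and 9 of 10 adult calls. Bins without a call in 1 population still held counts there: the fetal-only bins of Gata2 had medians of 11.5 fetal and 7 adult counts, and its adult-only bins 8 and 14. For Gfi1b the medians were 19 and 6 in fetal-only bins, and 15 and 19 in adult-only bins. The adult count was 0 in only 1 listed bin, that of Gfi1b at -280 kb, and no fetal count was 0.

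Distances of calls varied widely within each promoter. The median distance was 249 kb for fetal and 131 kb for adult calls of Gata2, with order-statistic intervals of 89.6 to 280 and 78.4 to 268 kb. For Gfi1b the medians were 97.6 kb (33.6 to 292) and 54.6 kb (25.6 to 128). Both promoters thus had the longer median in fetal cells, as did the batch, at 178 and 153 kb, but their intervals overlapped. These intervals treat called bins as independent draws, which neighbouring bins are not, and shared calls enter both sets. Their overlap is thus no comparison of the populations, and the difference was not tested. Weighting Gata2 calls by count lowered the fetal median to 5.55 kb, since the 2 bins nearest to the fragment were called in fetal cells only.

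Marks of the called bins were set beside those of all calls of the batch. Of the 30 adult calls of Gata2, 10 (33.3%, 17.3 to 52.8) were active enhancers in adult cells, against 13.1% over the batch. Of its 30 fetal calls 5 (16.7%, 5.64 to 34.7) were active enhancers in fetal cells, against 12.7%. The adult interval lay above the level of the batch, although neighbouring bins are not independent, and the difference between the populations was not tested. Active promoters took 13.3% of fetal (3.76 to 30.7) and 23.3% of adult Gata2 calls (9.93 to 42.3). These intervals include the 15.6% and 18.3% of the batch. Open chromatin took 53.3% of fetal and 56.7% of adult Gata2 calls, close to 53.0% and 54.6% in the batch. For Gfi1b, 2 of 13 fetal and 2 of 10 adult calls were active enhancers, and 69.2% (38.6 to 90.9) and 70.0% (34.8 to 93.3) were open.

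Enhancer bins of Gata2 were unequally divided between the populations. Among its listed bins 9 were active enhancers in adult cells only, 3 in fetal cells only and 3 in both, or 19.6%, 6.52% and 6.52% of 46. Over the contacts of the batch within a chromosome these shares were 3.24%, 4.28% and 8.54%. The 9 adult-marked bins had 307 fetal and 362 adult counts, and 4 were called in both populations, 4 in adult only and 1 in fetal only. Of the 1596 such contacts of the batch 28.1% were called in both, 40.7% in adult only and 31.1% in fetal only. The 3 fetal-marked bins had 51 and 56 counts, with 2 called in both and 1, at 56.4 kb, in adult cells only. All 4 enhancer bins of Gfi1b were marked in both populations, with 113 counts in each.

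**Figure D3:**
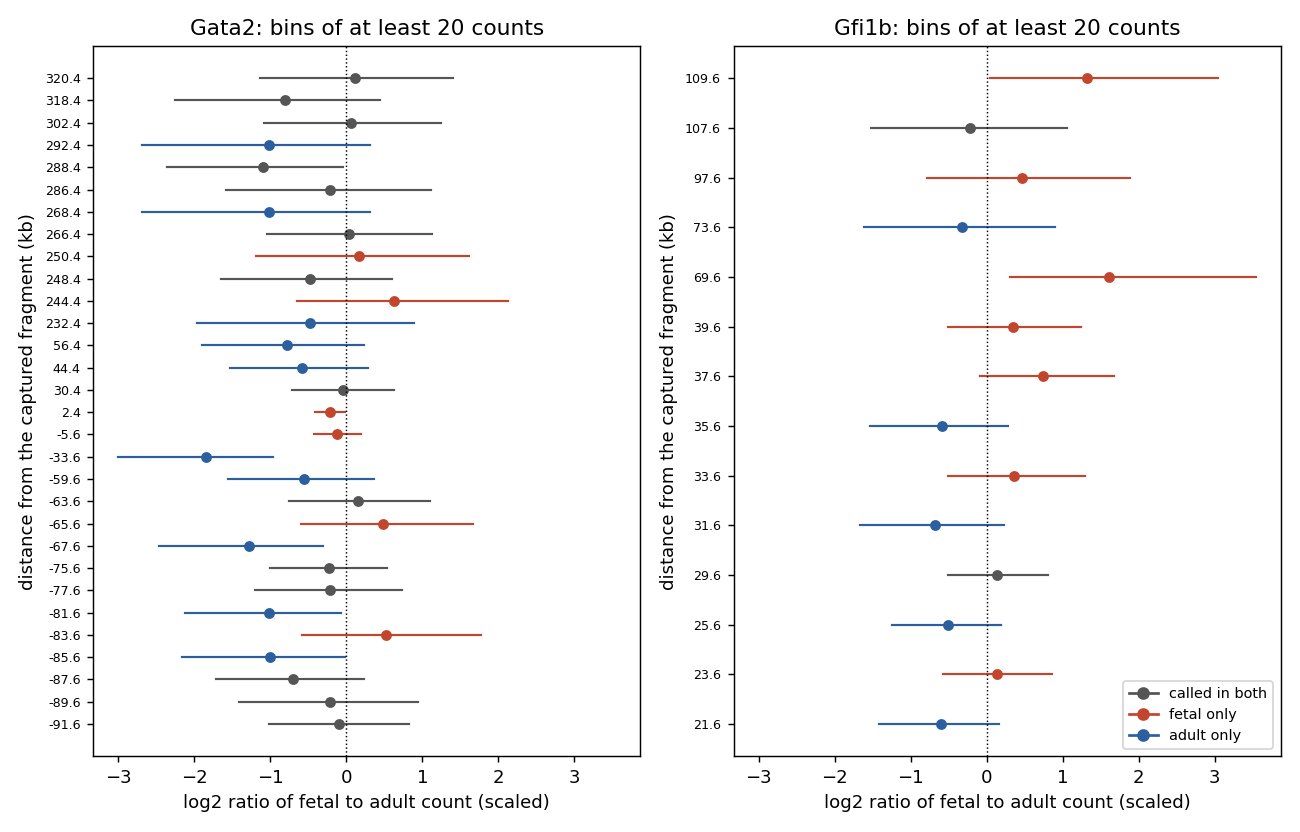
Log2 ratio of fetal to adult counts (scaled to batch totals) with 95% counting intervals for the bins of at least 20 counts, ordered by distance (kb), for Gata2 (left, 30 bins) and Gfi1b (right, 14 bins), coloured by the population in which each was called. Intervals of 6 Gata2 bins lie below 0 and those of 2 Gfi1b bins above 0.

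Count ratios between the populations were scaled by the totals of the batch over contacts within a chromosome, 892529 fetal and 759999 adult counts. Over all its bins Gata2 had 1223 fetal and 1275 adult counts, a log2 ratio of -0.29 (-0.41 to -0.18), which was -0.06 without the scaling. Leaving out the 2 bins within 20 kb, which was chosen after seeing the data, gave -0.40. Gfi1b had 401 and 330 counts, a log2 ratio of 0.05 (-0.16 to 0.26). The median over promoters was -0.12, and Gata2 stood at percentile 29.5 and Gfi1b at percentile 70.2 of these ratios.

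Among Gata2 bins of at least 20 counts, 6 of 30 had a counting interval below 0 and 0 of 30 above it. For Gfi1b 0 of 14 lay below and 2 of 14 above. Over such contacts of the batch 7.82% lay below and 3.35% above. Without scaling, the Gata2 bins below 0 fell to 2 and the Gfi1b bins above 0 rose to 3. The Gata2 bins below 0 in both cases were those at -33.6 kb (log2 ratio -1.85, -3.00 to -0.97) and -67.6 kb (-1.28, -2.47 to -0.31). The Gfi1b bins were those at 69.6 kb (1.61, 0.31 to 3.54) and 110 kb (1.31, 0.05 to 3.04). When scaled to contacts called in both populations, only the bin at 69.6 kb remained above 0 for Gfi1b.

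By distance, Gata2 counts were compared within classes. At 20 to 60 kb its 5 bins had 106 fetal and 146 adult counts, a log2 ratio of -0.69 (-1.07 to -0.32). Without the bin at -33.6 kb, a choice made after seeing the data, they had 94 and 107 counts and a ratio of -0.41 (-0.83 to -0.0054), nearly that at 60 to 150 kb. Over all contacts of the batch at 20 to 60 kb the summed counts gave 0.16 and the median was -0.26. At 60 to 150 kb Gata2 had 212 and 241 counts (-0.42, -0.69 to -0.14), and at 150 to 350 kb 271 and 273 (-0.24, -0.49 to 0.01). Over the batch the medians in these 2 classes were -0.21 and 0.08, and the summed counts gave -0.06 and -0.01. The Gata2 interval at 60 to 150 kb includes the batch median but not the value of the sums. Gfi1b had 279 and 249 counts at 20 to 60 kb (-0.07, -0.32 to 0.18) and 91 and 66 at 60 to 150 kb (0.23, -0.24 to 0.71).

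**Figure D4:**
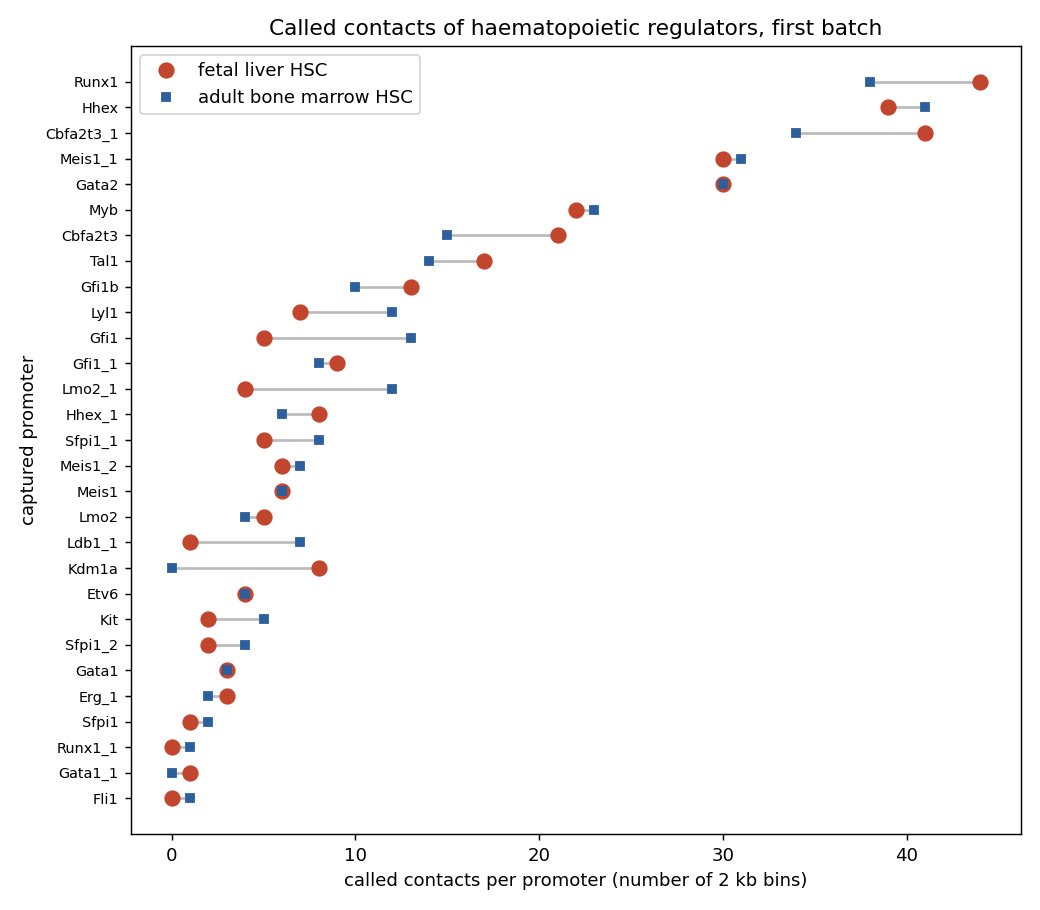
Number of called contacts (2 kb bins) in fetal (circles) and adult cells (squares) at 29 captured promoters of 19 haematopoietic regulators, ordered by their total. Gata2 has 30 in each population and is at rank 5, and Gfi1b has 13 and 10 and is at rank 9.

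Partner factors gave a frame for these numbers. Of a list of 22 haematopoietic regulators, 19 had promoters in the first batch, 29 in all, and 11 had more fetal, 14 more adult and 4 equal calls. Over all promoters of the batch 48.1% had more fetal and 42.1% more adult calls. The median log2 ratio of calls over the list was 0, as over all promoters of the batch. Among genes of factors that act with GATA2, Tal1 had 17 fetal and 14 adult calls, Erg 3 and 2, Lyl1 7 and 12, Ldb1 1 and 7, and Fli1 0 and 1. Runx1 had 44 and 38 at one promoter and 0 and 1 at another, and Lmo2 had 5 and 4 at one and 4 and 12 at another. Call numbers at promoters of these partners thus differed in direction, also within a gene, though several are small. Their scaled log2 count ratios did not differ in direction. All were below 0, from -1.80 at Fli1 to -0.08 at 1 Lmo2 promoter, where the median over promoters of the batch was -0.12. Kdm1a, which encodes the demethylase that GFI1B recruits, had 8 fetal and 0 adult calls, with 75 and 20 counts. Gfi1, the paralogue of Gfi1b, had 5 fetal and 13 adult calls at one promoter and 9 and 8 at another.

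The authors' deposited table marks 9 of the 19 captured genes of the list as differentially expressed, Gata2 included, and 7 of the 9 had more FPKM in adult cells. Among these 7 were Meis1, a homeobox cofactor of HSC self-renewal, at 23.8 and 52.2 FPKM at its first listed promoter, and Lmo2, the bridging protein of the GATA and TAL1 complex, at 125 and 262. Gfi1 had the opposite order, at 10.96 FPKM in fetal and 1.54 in adult cells. So had Spi1, the myeloid factor PU.1, at 24.8 and 15.5 at its first promoter. Another Spi1 promoter, at 13.5 and 9.17, did not carry the mark. Gata1, which replaces GATA2 during red cell formation, was at 15.6 in fetal and 8.09 in adult cells without the mark. Over the batch 35.5% of 1952 promoters carried the mark, a share counted by promoter and not by gene. How many of those promoters had more FPKM in adult cells was not counted.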

How the data were processed

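Promoter Capture-C contacts were taken from 1 table of the authors. Per the submitters' processing notes, Trim Galore 0.41, Bowtie2 2.2.2 and the build mm9 were used. The caller's settings and the treatment of duplicate reads are not given in the sources used here. The authors deposited whole-number counts per contact and population, scores that behave as −log10 p-values (0 where not called), FPKM per promoter and 0 or 1 marks of distal bins in other units, pooled over libraries. How FPKM values and marks were made is not stated in the labels. Value columns left unassigned to a population numbered 0.

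A contact was called where its score was above 0, and distance ran between midpoints. Strand came from RefSeq, and older names (Sfpi1, Emr1) from its synonyms. Log2 ratios are of counts plus 1 after scaling, and their intervals were computed without that 1. Python 3.11.15, pandas 2.3.3 and scipy 1.17.1 were used, and interval functions were tested on simulated data.

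Named bins were the 5 with the highest score per population, the 5 with the largest log2 ratio in each direction (at least 20 counts), bins with an enhancer mark or a captured promoter, and those at known elements; other bins described were chosen after their values were seen. Members and lists were chosen with earlier results of these data known.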

Additional observations from a re-analysis of the deposited data

How the results depend on the processing

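No paired analysis was possible because the deposited values are pooled over the libraries of a population. For the same reason no library could be left out, and the precision of a bin is limited by its depth, with a median of 11 counts per call in the batch. At a score of at least 2.30, 1 unit above the lowest (a p 10 times smaller if the score is −log10 p, which is not stated), the calls fell to 8 fetal and 12 adult for Gata2 and to 4 fetal and 1 adult for Gfi1b. Open chromatin then took 83.3% of adult Gata2 and 100% of adult Gfi1b calls, and no Gfi1b call was an active enhancer or an active promoter in its own population (0% in fetal and 0% in adult cells). Merging called bins up to 5 kb apart left 11 fetal and 14 adult regions for Gata2 and 8 and 5 for Gfi1b. A call of the other population within 5 kb was then counted as a match. The recurrence of fetal calls rose to 90.0% for Gata2 and 61.5% for Gfi1b, and within 20 kb to 93.3% and 69.2%. Recurrence over the batch at these distances was not computed, so these shares have no level of the batch beside them. Weighting by count moved the median fetal distance of Gata2 to 5.55 kb. With marks of listed bins within 5 kb, open chromatin took 93.3% of fetal and 76.7% of adult Gata2 calls.

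Unscaled counts gave a log2 ratio of -0.060 for Gata2 and 0.28 for Gfi1b, and scaling to contacts called in both populations gave -0.38 and -0.03. The Gata2 bin at 2.45 kb turned from -0.22 to 0.016 unscaled and to 0.076 when scaled by the promoter's own total. Of 164 values of 41 named bins under alternatives, the other 162 stayed within their counting intervals. The alternatives moved ratios little beside the width of most intervals, so this could hardly come out otherwise. Ratios near 0 that changed sign are among the 162. The Gata2 bin at -5.55 kb went from -0.12 to 0.11 unscaled. That at 302 kb went from 0.06 to -0.02 when scaled to contacts called in both populations. Of 60 other values under alternatives 37 stayed within theirs, or within 1.5 times the count of calls.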
